A study of Caenorhabditis elegans with 3 samples.

Results

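The pals genes of Caenorhabditis elegans, a free-living nematode, were followed together with associated genes of the intracellular pathogen response. Members were taken by name: every gene called pals with a number, and skr-3, skr-4, skr-5, cul-6, zip-1, pnp-1 and eol-1, where a probe was annotated to that gene alone and had a value on all 3 arrays. This gave 29 genes of the 19264 genes or unnamed probes measured, 24 of them pals genes out of 39 pals symbols in the RefSeq gene table (assembly WBcel235), plus skr-3, skr-5, cul-6, zip-1 and pnp-1. skr-4, eol-1 and the other 15 pals genes were not analysed here, among them pals-16, pals-17 and pals-20. RNA of late young adult hermaphrodites, the self-fertile sex, from preparations 1, 2 and 3 was set in channel 2 of 1 array each against a wild-type mixed reference RNA in channel 1. The labels give no genotype, age in hours or food for the adults, no make-up for the reference and no dyes, and they do not say whether the preparations were separate cultures.

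The pals genes are named for a signature that their proteins share, and their biochemical function is largely unknown. Many of them belong to the intracellular pathogen response, a set of genes that the worm switches on, mainly in the intestine, when microsporidia or the Orsay virus infect its cells or when the proteasome is blocked. PALS-22 holds this response down and PALS-25, encoded in the same operon, turns it on. ZIP-1, a transcription factor of the bZIP class, is needed to induce some of its genes, and PNP-1, an enzyme of purine breakdown and salvage, holds it down. CUL-6, a cullin, forms a ubiquitin ligase with Skp1-related proteins such as SKR-3 and SKR-5, and this ligase promotes tolerance of heat and of protein damage.

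The deposited values are log2 ratios of the channels. The labels name the adult RNA first and the reference second, so the ratio was read as likely adult over reference. With the opposite direction, "higher" and "lower" would change places throughout. Marker genes gave the following background, beside 19.6% higher and 18.8% lower over all genes. Of the oocyte and eggshell markers 7 of 7 were higher (median log2 ratio 1.92), and 6 of 6 neuronal markers were lower (median -2.03). In the intestinal list 3 of 7 markers were higher and 0 lower. The median of this list was 0.66, and 0.64 to 0.89 on the single arrays. Of the 4 that did not pass, elt-2 (-0.57) and ifb-2 (-0.25) had means below 0, and asp-1 ran from -0.70 to 1.24 over the arrays. Epidermal markers split, with 1 of 6 higher and 3 lower (median -0.97). The higher gene was col-19 (2.75), and the lower ones were rol-6 (-3.76), sqt-3 (-2.37) and dpy-7 (-2.10). Of the sperm markers 4 of 6 were higher and 0 lower (median 0.81). The part of any tissue's share of the RNA in the results below was not tested. In such whole-animal RNA, fewer cells of a type and less RNA per cell cannot be told apart.

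Most of the 29 genes that differed were lower in the adult RNA. By limma with Benjamini-Hochberg adjustment over all genes, 16 were lower, 1 was higher and 12 did not pass the threshold of 0.05. Over all genes 18.8% were lower and 19.6% higher, 38.4% in either direction. At least 2-fold lower ratios were found for 13 of the 29, against 8.79% of all genes, and 21 of the 29 lay below 0 on all 3 arrays, against 30.1% of all genes. Among the 24 pals genes alone, 12 were lower and 1 higher. Their median log2 ratio was -0.58 ± 0.10 (SD of the 3 array medians), with array medians of -0.66, -0.49 and -0.67, beside a median of 0.04 over all genes.

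**Figure D1:**
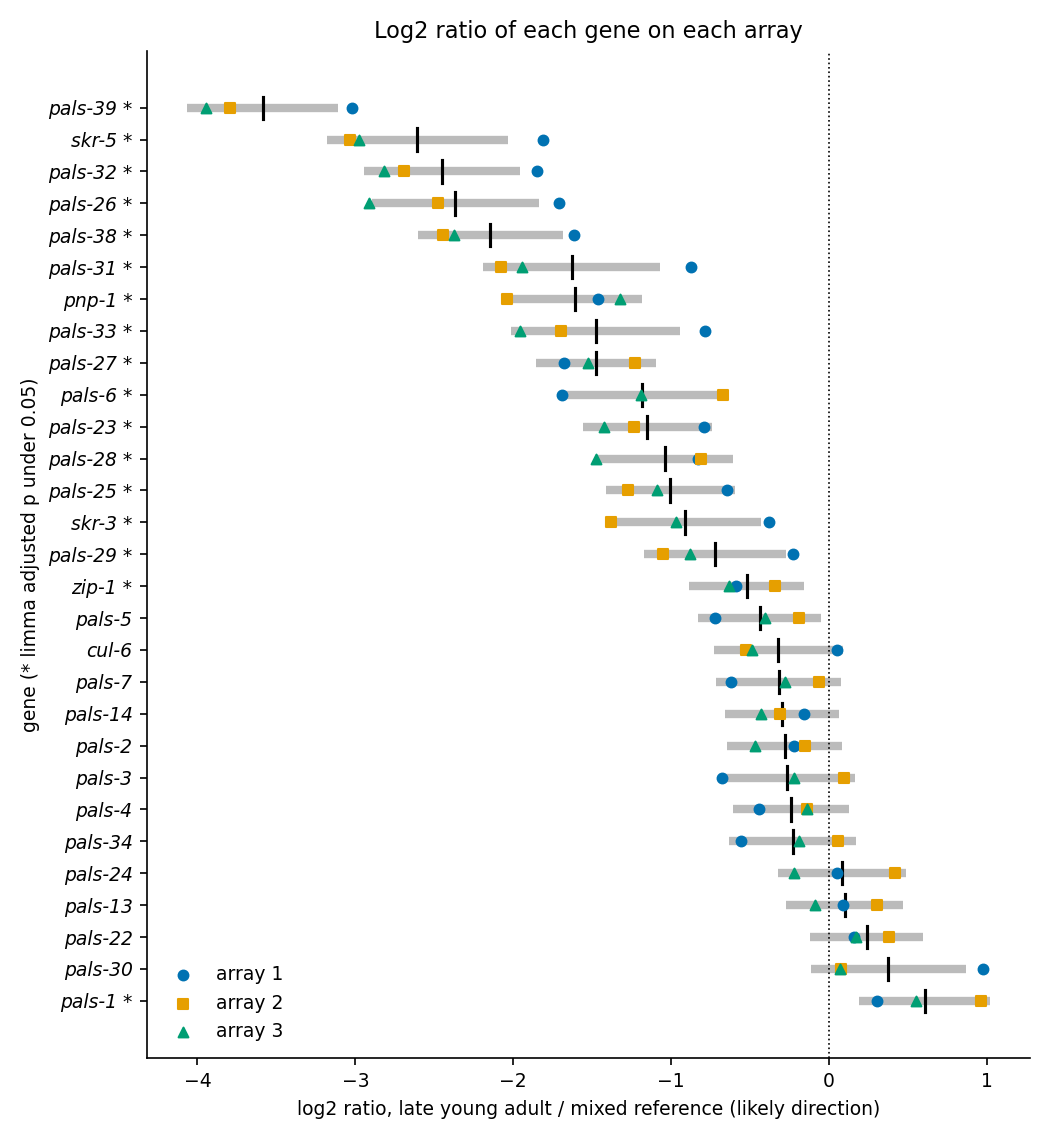
Log2 ratio (horizontal axis, adult over reference in the likely direction) of each of the 29 genes (rows, ordered by mean) on arrays 1, 2 and 3. Black ticks are means, grey bars the moderated 95% confidence intervals, and asterisks mark limma adjusted p under 0.05; the genes run from pals-39 at -3.59 to pals-1 at 0.60.

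**Figure D2:**
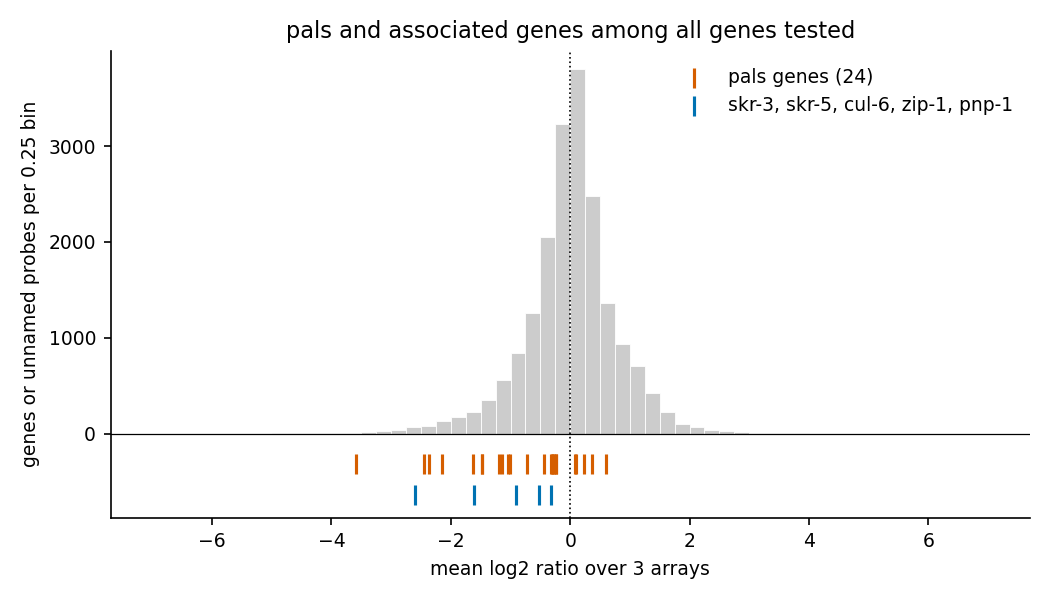
Histogram of the mean log2 ratio over 3 arrays for 19264 genes or unnamed probes, in bins 0.25 wide, with ticks under it for the 24 pals genes and the 5 other genes. The ticks lie mostly left of 0, from -3.59 to 0.60.

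The gene farthest from 0 was pals-39, a pals gene of chromosome V. Its log2 ratios were -3.02, -3.80 and -3.94 on arrays 1, 2 and 3. All 3 arrays put it low, with array 1 the least so. The mean of -3.59 ± 0.49 (SD, n = 3) is a 12-fold lower share in the adult RNA (limma adjusted p = 5.41e-05), and pals-39 was the 29th lowest of the 19264. Its neighbour pals-38 lay at -1.62, -2.44 and -2.37, a mean of -2.14 ± 0.46 (limma adjusted p = 0.000167). Both of these neighbouring genes were thus over 2-fold lower on every array. The pals gene on the other side of pals-39, pals-37, was not analysed here.

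Other pals genes on chromosome V stood alone, with no other pals gene among the 5 nearest coding genes on either side. pals-32 had log2 ratios of -1.85, -2.69 and -2.82, a mean of -2.45 ± 0.53 or 5.47-fold lower (limma adjusted p = 0.000133). pals-31 lay at -0.87, -2.08 and -1.94 (mean -1.63 ± 0.66, limma adjusted p = 0.00122), and pals-33 at -0.78, -1.70 and -1.95 (mean -1.48 ± 0.62, limma adjusted p = 0.00160). In each of these genes array 1 lay nearest to 0, and pals-31 and pals-33, with skr-5, had the largest SDs between arrays of the 29. The remaining measured pals gene of this chromosome, pals-34, lay at -0.56, 0.06 and -0.19. Its arrays fell on both sides of 0, and its mean of -0.23 had a 95% confidence interval of -0.63 to 0.17.

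On chromosome III, pals-26, pals-27 and pals-28 lie beside one another and all were lower. pals-26 had log2 ratios of -1.71, -2.47 and -2.91, a mean of -2.37 ± 0.61 or 5.15-fold lower (limma adjusted p = 0.000199). pals-27 lay at -1.68, -1.23 and -1.53 (mean -1.48 ± 0.23, limma adjusted p = 0.000356), and pals-28 at -0.83, -0.81 and -1.47 (mean -1.04 ± 0.38, limma adjusted p = 0.00290). The spread between arrays was smaller than the distance from 0 in each. The only coding gene listed between them, B0284.3, was higher, at 0.60 ± 0.32.

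Of the regulator pair that shares an operon on chromosome III, the activator gene pals-25 was lower and the repressor gene pals-22 did not pass. pals-22, the repressor, had log2 ratios of 0.16, 0.38 and 0.17, a mean of 0.24 ± 0.13 that did not pass (limma adjusted p = 0.273) and whose 95% confidence interval ran from -0.12 to 0.59. pals-25, the activator, had -0.65, -1.28 and -1.09, a mean of -1.01 ± 0.32 or 2.01-fold lower (limma adjusted p = 0.00274). On every array pals-22 lay above pals-25. The difference was 0.81, 1.66 and 1.26, a mean of 1.24 ± 0.43, with an exact two-sided sign-flip permutation p of 0.25, the smallest that 3 arrays allow, so this test cannot pass the threshold. Of the other genes of this run, pals-23 was lower, at -0.79, -1.24 and -1.42 (mean -1.15 ± 0.32, limma adjusted p = 0.00146), and pals-24 lay at 0.05, 0.42 and -0.22. pals-24 did not pass, with arrays on both sides of 0.

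The longest run of pals genes lies on chromosome I and holds 14 coding pals genes, of which 8 were measured. Of the 8, 1 was lower and 0 were higher, beside 18.8% lower and 19.6% higher over all genes. The run lay nearer to 0 than the groups above, with a median log2 ratio of -0.29. Array by array the median was -0.53, -0.15 and -0.34. pals-5, whose promoter is the usual reporter of the intracellular pathogen response, had -0.72, -0.19 and -0.41. These values are averages of 2 probes and lay below 0 on all 3 arrays. On array 3 the probes of pals-5 lay on opposite sides of 0, at 0.13 and -0.95. The mean of pals-5, -0.44 ± 0.27, did not pass (limma adjusted p = 0.0741, 95% confidence interval -0.83 to -0.05). The gene of this run that was lower was pals-6, at -1.69, -0.67 and -1.19 (mean -1.19 ± 0.51, 2.27-fold, limma adjusted p = 0.00282). It rests on 1 of its 2 probes, since the other had no value on any array.

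The other 6 genes of the run, pals-2, pals-3, pals-4, pals-7, pals-13 and pals-14, had means between -0.32 and 0.10 and did not pass. Like pals-6, pals-4 rests on 1 of its 2 probes. pals-3 overlaps both pals-4 and pals-12 in the RefSeq table, so their signals may be shared. Probe pairs were measured for 6 genes of the run, and their means differed by a median of 0.23. The widest gap, 0.58, was in pals-2, with means of 0.01 and -0.57. The second of these probes passed when probes were tested singly (limma adjusted p = 0.0255), while the mean of both did not (0.204). The probe means of pals-13 lay on both sides of 0, at 0.32 and -0.13. Array 1 gave the lowest value in 5 of the 8 genes of this run. In the 11 pals genes that were lower on the other chromosomes, array 1 gave the lowest value in 1 and the highest in 9.

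Set side by side, 11 of the 15 measured pals genes outside chromosome I were lower and 0 higher (median log2 ratio -1.15). This set leaves out pals-37 and a whole run of 7 pals genes on chromosome III, of which 0 were measured. Of the 9 measured on chromosome I, 1 was lower and 1 higher (median -0.28), 11.1% each against 18.8% lower and 19.6% higher over all genes. Array by array the median was -0.79, -1.24 and -1.47 outside chromosome I and -0.44, -0.14 and -0.28 on it, so the first set lay lower on each array. This split by chromosome was drawn after the values were seen and was not tested. The only member that was higher, pals-1, lies on chromosome I away from the run. It had log2 ratios of 0.30, 0.96 and 0.55, a mean of 0.60 ± 0.33 or 1.52-fold (limma adjusted p = 0.0285), and it did not pass without array 2 (mean 0.42) or without array 3 (mean 0.63).

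On chromosome IV, the neighbours pals-29 and pals-30 lay on opposite sides of 0 on every array. pals-29 lay at -0.23, -1.05 and -0.88, a mean of -0.72 ± 0.43 (limma adjusted p = 0.0197), and did not pass without array 2 (mean -0.56) or without array 3 (mean -0.64). pals-30 lay at 0.98, 0.08 and 0.07, a mean of 0.37 ± 0.52 that did not pass (limma adjusted p = 0.209). The value of array 1 stands apart in pals-30, and arrays 2 and 3 lie close to 0.

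**Figure D3:**
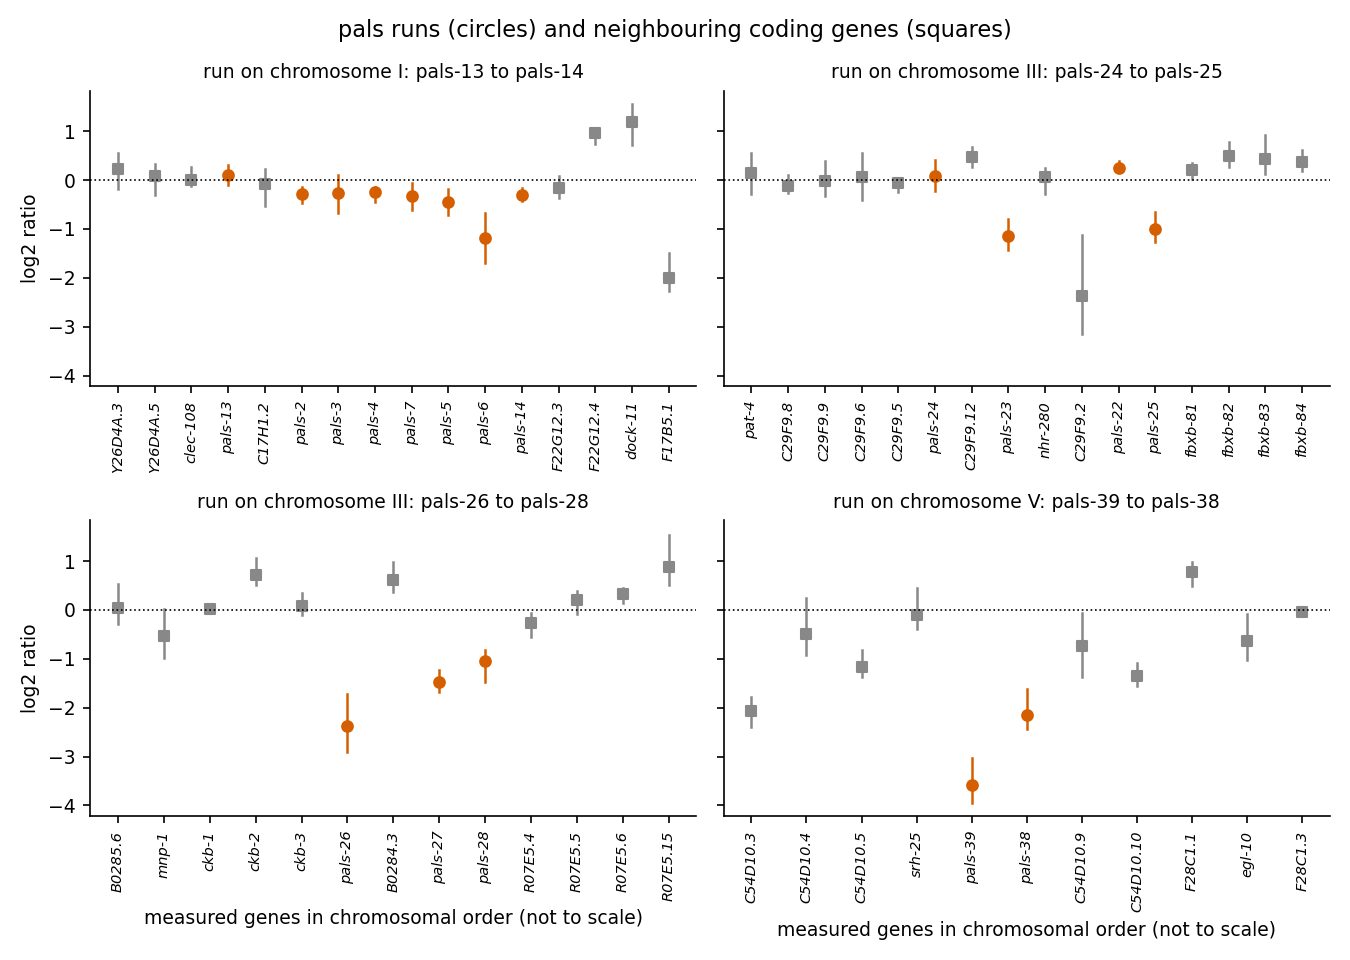
Mean log2 ratio (symbols) and range over the 3 arrays (lines) of measured genes in chromosomal order around 4 runs of pals genes, with pals genes as orange circles and other coding genes as grey squares. The run on chromosome I lies close to 0 except pals-6, while pals-26, pals-27, pals-28, pals-38 and pals-39 lie at -3.59 to -1.04.

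The coding genes around the pals genes had ratios on both sides of 0. Of 87 measured coding genes that lie between pals genes of a run or among the 5 nearest on either side, 14 were lower and 10 higher, so that 16.1% were lower against 18.8% of all genes, 11.5% higher against 19.6%, and 27.6% called in either direction against 38.4%. Their median log2 ratio was 0.01. Beside pals-26 to pals-28 the 9 measured flanking genes had a median of 0.08, and 2 were higher and 0 lower. Beside pals-38 and pals-39 the 9 flanking genes had a median of -0.64, and 1 was higher and 5 were lower.

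Of the ubiquitin ligase genes, the Skp1-related adaptors were lower and the cullin did not pass. skr-5 had log2 ratios of -1.81, -3.04 and -2.98, a mean of -2.61 ± 0.69 or 6.10-fold lower (limma adjusted p = 0.000182). skr-3 lay at -0.38, -1.38 and -0.97, a mean of -0.91 ± 0.50 (limma adjusted p = 0.00936). skr-5 lay below skr-3 on each array, by a mean of 1.70 ± 0.29, with an exact two-sided sign-flip permutation p of 0.25, the smallest possible with 3 arrays. Skp1-related genes resemble one another, so signal between their probes may be shared.

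cul-6, the cullin of this ligase, lay at 0.05, -0.53 and -0.49. Array 1 stood above 0 and the others below, and the mean of -0.32 ± 0.33 did not pass (limma adjusted p = 0.194), whereas without array 1 it passed at a mean of -0.51. Of the ligase's other known subunits, the F-box gene fbxa-158, which encodes a substrate adaptor, was measured and was lower, at -1.04, -1.17 and -1.54 (mean -1.25 ± 0.26, limma adjusted p = 0.000794). rcs-1, its RING subunit, and fbxa-75 were not analysed here.

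Of 14 other skr genes, 3 were higher and 3 lower (median 0.19), counts near the 19.6% and 18.8% of all genes. skr-19 lay at -1.07 ± 0.30, skr-1 at -0.91 ± 0.06 and skr-17 at 0.86 ± 0.11. skr-1, a Skp1 gene of the general ligases, and its neighbour in name skr-2, at 0.72 ± 0.04, thus lay on opposite sides of 0. Of 4 other cullins, 2 were higher and 0 lower: cul-1, of the same SCF ligase class, at 1.23 ± 0.21, and cul-4, which serves DNA replication control, at 0.50 ± 0.25. cul-4 did not pass once the arrays were centred, scaled or quantile normalized (means 0.47 to 0.49), without array 2 (mean 0.36) or without array 3 (mean 0.54).

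**Figure D4:**
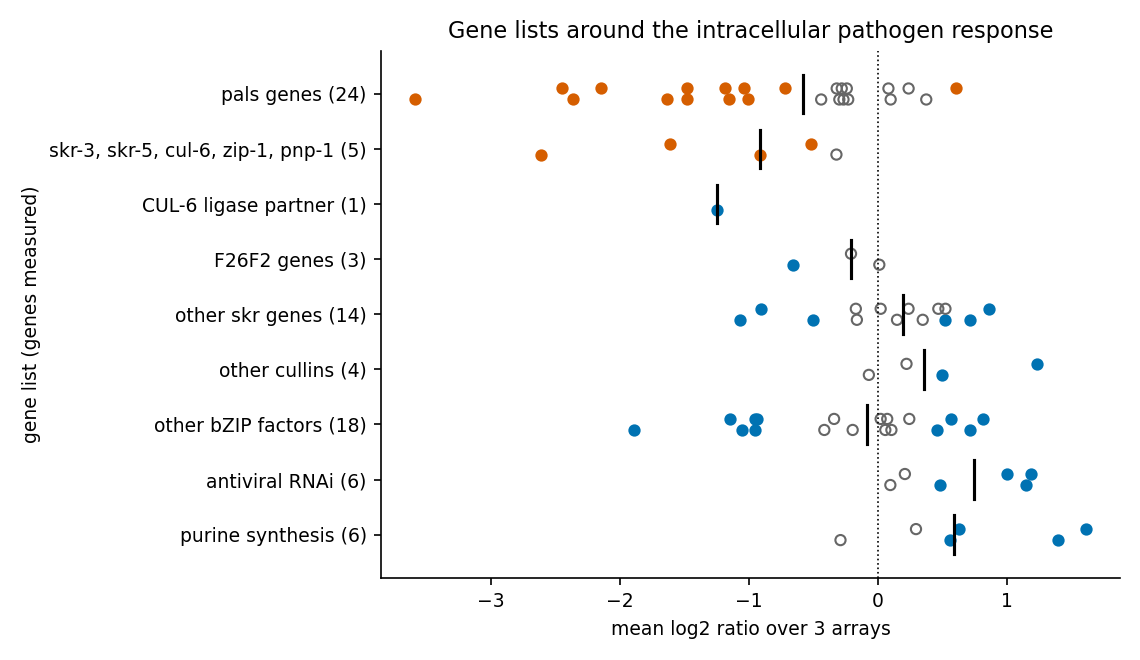
Mean log2 ratio over 3 arrays of genes (points) in 9 lists, with black lines at the list medians; filled points have limma adjusted p under 0.05 and open points do not. The pals genes and the 5 other members lie mostly below 0, while the antiviral RNAi and purine lists have medians of 0.74 and 0.59.

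pnp-1, which encodes the purine nucleoside phosphorylase, was lower. Its log2 ratios were -1.47, -2.04 and -1.33, a mean of -1.61 ± 0.38 or 3.05-fold lower (limma adjusted p = 0.000411). All 3 arrays put pnp-1 over 2-fold lower, with array 2 the lowest. The other purine genes measured, listed for purine synthesis and not for breakdown, did not go the same way. Of these, 4 of 6 were higher and 0 lower (median 0.59), beside 19.6% higher and 18.8% lower over all genes. ppat-1, of the first step of purine synthesis, lay at 1.61 ± 0.52, gmps-1, the GMP synthetase gene, at 1.39 ± 0.24, and adsl-1, the adenylosuccinate lyase gene, at 0.63 ± 0.11. adsl-1 did not pass without array 2 (mean 0.64) or without array 3 (mean 0.57).

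zip-1 was lower by a smaller amount. Its log2 ratios were -0.59, -0.34 and -0.64, a mean of -0.52 ± 0.16 or 1.44-fold lower (limma adjusted p = 0.0309), and it did not pass without array 2 (mean -0.61) or without array 3 (mean -0.47). Among 18 other bZIP genes, 4 were higher and 6 lower (median -0.09), beside 19.6% higher and 18.8% lower over all genes. zip-5 was the farthest from 0 at -1.89 ± 0.18, followed by zip-8 at -1.15 ± 0.24 and zip-10 at -1.05 ± 0.47.

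The 3 F26F2 genes, known as targets of the intracellular pathogen response and lacking gene names, were near 0 or somewhat lower. F26F2.4 lay at -1.08, -0.24 and -0.66, a mean of -0.66 ± 0.42 (limma adjusted p = 0.0278), and did not pass without array 1 (mean -0.45) or without array 3 (mean -0.66). F26F2.1 lay at -0.21 ± 0.11 and F26F2.3 at 0.01 ± 0.33, and neither passed. Of the measured genes listed for viral RNA sensing and RNA interference, 4 of 6 were higher and 0 lower (median 0.74). From the same list, cde-1, pup-1, sta-1 and rrf-1 were not analysed here. Over all genes 19.6% were higher and 18.8% lower. rde-4, which binds double-stranded RNA, lay at 1.18 ± 0.02, dcr-1, the Dicer gene, at 1.15 ± 0.34, and drh-3, a Dicer-related helicase of germline small RNAs, at 1.00 ± 0.54. drh-1, the RIG-I-like sensor of viral RNA upstream of the response, lay at -0.25, 0.28 and 0.26, with a mean of 0.10 ± 0.30 that did not pass.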

How the data were processed

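The data are 3 arrays of 2 channels, all of 1 group. The deposited log2 ratios, 1 per probe and array, come from a value table whose background correction, normalization and filters are not given in the sources used here. Of the deposited values 99.98% were base-2 logarithms of whole multiples of 0.001, within 0.01 of a step. Spot intensities were not used, so faint spots cannot be told apart, and the number of arrays limits precision. Of 20000 probes, 15655 had a single symbol in the platform annotation, 198 had several and 4147 were unlisted; 15569 symbols were checked by gene identifier against RefSeq, with 0 changed. Probes of a symbol were averaged per array, unnamed probes were kept, and 19264 genes or probes with a value on all 3 arrays were tested.

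An intercept-only model per gene (limma 3.58.1 under R 4.3.3, lmFit and eBayes) set the mean log2 ratio against 0, two-sided. Benjamini-Hochberg adjustment over all genes and a threshold of 0.05 were used. The procedure was run on simulated data with independent noise, which held no effect shared by a whole array. The reference's own spread does not enter, and channel and condition cannot be told apart. The p-values set the mean ratio against the spread between the 3 preparations, moderated with the spread over all genes. The spread between preparations could be technical. The members and lists were chosen with earlier results of these data known. Named were members past the threshold, the non-pals members, pals-5, the regulators, the 3 highest and lowest pals genes and the 3 with the largest SD, and up to 3 called genes of each list; further list genes and neighbouring genes were named after their values were seen. Runs of pals genes join coding genes with at most 5 others between them in RefSeq order.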

Additional observations from a re-analysis of the deposited data

How the results depend on the processing

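The 16 lower members numbered 14 to 17 when 1 array was left out, and the 12 lower pals genes 11 to 12; the counts were 16 and 12 under centring, scaling, quantile normalization and robust moderation, and 17 and 13 with probes tested singly. The 1 higher member, pals-1, made a count of 0 to 1 when 1 array was left out and 0 at an adjusted p under 0.01, where 4903 of all genes passed against 7393. With 1 array left out, 5316 to 8446 genes passed. A one-sample test without moderation called 0 genes in either direction, among all genes and among the members, where 11 of the 29 members had an unadjusted p under 0.05 (limma gave 18) and 6188 of all genes did (limma gave 8985); it has only the 3 values of each gene. The median of the pals genes lay between -0.65 and -0.55 with 1 array left out. Without array 2 the mean changed sign in pals-24 and pals-13, neither of which passed; with 1 array left out their means ran from -0.087 to 0.23 and from -0.0033 to 0.19, and the cause was not tested. No paired analysis was possible because there is only 1 group. Signal over background could not be weighed without intensities.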

Other observations

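Some coding genes beside the pals genes, picked after their values were seen, had low ratios of their own. C29F9.2, which lies between pals-23 and pals-22, had log2 ratios of -1.12, -2.87 and -3.16, a mean of -2.38 ± 1.10 (SD, n = 3; limma adjusted p = 0.00116). Its value on array 1 lay far nearer to 0 than the others. On the far side of pals-14, F17B5.1 lay at -2.01 ± 0.45, and near pals-39 the genes C54D10.3, C54D10.10 and C54D10.5 lay at -2.08 ± 0.31, -1.35 ± 0.23 and -1.16 ± 0.31. The genes fbxb-81 to fbxb-84, next to pals-25 on the other side, had means from 0.20 to 0.48 and did not pass.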
